A study of Homo sapiens with 12 samples.

Results

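The transcripts of FA2H and of 9 other genes of ceramide synthesis (SPTLC1, SPTLC2, CERS1, CERS2, CERS4, CERS5, CERS6, DEGS1 and DEGS2) were compared across cell lines with inducible E2F1. They are 10 of the 25369 genes counted. FA2H was chosen by its RNA level, as the gene with the largest rise, taken here as that with WT E2F1. The other 9 were added by pathway. The gain of FA2H over pTRE is therefore a description and carries no test here. Of the 10, 9 passed edgeR's filter on low counts, and DEGS2 did not.

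RNA was sequenced from U2OS cells, a human osteosarcoma line, in 3 biological replicates of each of 4 stable Tet-On lines. The pTRE line held the empty vector, and the WT line held HA-tagged human E2F1, a transcription factor of cell cycle entry. The R109K line held E2F1 with lysine in place of the arginine that PRMT1 methylates. The KK line held E2F1 with arginines 111 and 113, the residues methylated by PRMT5, changed to lysine. All 4 lines carried the Tet-On transactivator, were grown under G418 and hygromycin B, and received doxycycline at 1 µg/ml, which switches the construct on, for 24 hours. Each line was made by stable transfection, the native E2F1 gene was still present, and whether a line was 1 clone is not given in the sources used here.

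Between 11500537 and 31040903 reads per sample fell on genes. WT replicate 2 stood apart, with 31.2% of its reads on genes against 59.0% to 65.7% in the other 11 samples, and results whose call or sign changes without it are given both ways. E2F1 itself was at 82.9 to 101 CPM (read counts scaled to library size, here with edgeR's TMM factors) in pTRE. It was at 1469 to 2315 CPM in WT, 932 to 1283 CPM in R109K and 1112 to 1478 CPM in KK. The samples are labelled as an epithelial osteosarcoma line. Of 8 osteoblast or mesenchymal markers, BGLAP and SP7 had at most 10 reads in every sample. The summed level of the list was 6128 to 7391 CPM in pTRE and 2171 to 3383 CPM over the other lines. It was mostly COL1A1, SPARC and VIM, with pTRE means of 3556.9, 1612.8 and 1554.5 CPM. RUNX2, ALPL and COL1A2 had pTRE means of 17.0, 1.18 and 0.290 CPM. Of 6 epithelial markers, KRT19 had at most 10 reads in every sample. The sum was 745 to 919 CPM in pTRE and 365 to 659 CPM over the other lines. It was mostly KRT8 and KRT18, with pTRE means of 503 and 288 CPM. EPCAM, CDH1 and ESRP1 were low, with pTRE means of 12.3, 1.38 and 0.294 CPM.

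Ceramide is the common backbone of sphingolipids. Serine palmitoyltransferase, whose core subunits are SPTLC1 and SPTLC2, joins serine to a fatty acid, and a ceramide synthase (CERS) then attaches a second fatty acid whose length depends on the CERS present. DEGS1 places the double bond that turns dihydroceramide into ceramide, and DEGS2 can add a hydroxyl group in its place. FA2H, fatty acid 2-hydroxylase, puts a hydroxyl group on the fatty acid before it enters ceramide, and its lipids are known from myelin and skin. Loss of FA2H function causes an inherited disease of white matter.

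The promoters of FA2H and CERS1 are shown because these were the 2 genes of the set with changes greater than 2-fold. Each line gives the 250 bases before the RefSeq transcription start, 5′ to 3′ on the minus strand, on GRCh38.p14, at chr16:74774821-74775070 for FA2H and chr19:18896159-18896408 for CERS1. Capitals mark the 6-letter core of an E2F site (TCCCGC, where the second and the third letter may each be C or G, on either strand), and matches that touch or overlap run together.

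FA2H: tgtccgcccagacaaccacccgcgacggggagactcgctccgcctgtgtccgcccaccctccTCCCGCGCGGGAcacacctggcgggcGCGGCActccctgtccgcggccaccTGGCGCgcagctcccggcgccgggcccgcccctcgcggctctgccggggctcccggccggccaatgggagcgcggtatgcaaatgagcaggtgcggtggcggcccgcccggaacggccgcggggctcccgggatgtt

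CERS1: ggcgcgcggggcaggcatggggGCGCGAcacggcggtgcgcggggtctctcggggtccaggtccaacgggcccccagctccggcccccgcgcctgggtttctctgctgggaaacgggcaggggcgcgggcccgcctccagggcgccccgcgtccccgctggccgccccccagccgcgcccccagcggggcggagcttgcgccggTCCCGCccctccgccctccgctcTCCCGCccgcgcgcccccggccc

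FA2H held 4 such matches and the CERS1 window shown held 3, while a second CERS1 promoter in the table held 0. Matches were not particular to these genes: DEGS2 held 3, the DEGS1 promoters 2 and 1, and 41.3% of all 250-base windows in the table held at least 1. The longer form TTTCCCGC, where the fourth and the fifth letter may each be C or G, occurred in none of the promoters of the 8 matched genes, from 250 bases before to 50 after the start, and in 3.31% of all 35116 promoters. CERS2 and CERS4 had no entry under their symbol. In windows of GRCh37 from 900 bases before to 100 after each start, 0 of the 10 genes held the longer form, against 7.01% of 21545 genes. A match is a run of letters and not a measured site of binding.

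FA2H transcripts were almost undetected in pTRE and plain in every line with E2F1. The gene lies on the minus strand of chromosome 16 (GRCh37, 74746853 to 74808729) and has 3279 exonic bases. Its reads were 0, 5 and 2 in the pTRE replicates, 596, 248 and 451 in WT, 274, 235 and 175 in R109K, and 554, 392 and 443 in KK. All pTRE samples were thus below all others by more than an order of magnitude. In CPM, pTRE replicates were at 0, 0.190 and 0.0735, WT at 21.2, 19.9 and 16.3, R109K at 8.88, 8.54 and 7.17, and KK at 19.2, 18.8 and 17.5. The R109K samples sat together below every WT and KK sample, while the WT and KK samples overlapped. In bulk RNA, more cells with the transcript and more transcript per cell cannot be told apart. Of all genes tested, 27.1% had replicates that did not overlap between R109K and WT and 21.0% between R109K and KK, against 9.97% between KK and WT.

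Mean FA2H levels were 0.0878 ± 0.0958 CPM in pTRE, 19.1 ± 2.55 in WT, 8.20 ± 0.908 in R109K and 18.5 ± 0.886 in KK (SD, n = 3). Pooled over replicates, FA2H was 210.9 times its pTRE level in WT, with a 95% counting interval of 102 to 526. The ratio was 91.8 (44.3 to 229) in R109K and 205.5 (99.5 to 512) in KK. These intervals are wide because pTRE held 7 FA2H reads in all, and they cover counting error only. The fitted log2 fold change was 7.66 in WT, 6.44 in R109K and 7.61 in KK, and without pTRE replicate 2, which held 5 of the 7 reads, they were 8.77, 7.55 and 8.72.

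The rise that chose FA2H was taken to be that in WT over pTRE, so R109K against KK was tested. The levels of all lines were known when the gene was chosen, and KK was about as high as WT (means 18.5 and 19.1 CPM). The KK values may thus have taken part in the choice, and the p-value is not free of it. FA2H was 0.444 times as high in R109K as in KK, a log2 difference of -1.17 (SE 0.18, 95% interval -1.57 to -0.78, edgeR quasi-likelihood adjusted p = 0.00981). The 3 R109K samples were all below the 3 KK samples. Of all 16625 genes tested, 0.132% passed in this comparison, and 0.0481% were lower in R109K by more than 2-fold. The call lay near its threshold of 0.01: with any 1 of the 6 R109K and KK samples left out, the adjusted p was 0.0224 to 0.0925, and without WT replicate 2 it was 0.00346. E2F1 RNA in the same samples differed by -0.18 on the log2 scale (95% interval -0.56 to 0.19, adjusted p = 0.773). Against WT, FA2H was at a log2 difference of -1.22 in R109K and -0.05 in KK, with no test, since WT took part in the choice. E2F1 RNA was also lower in every R109K sample than in every WT sample, at -0.65 (95% interval -1.02 to -0.27, adjusted p = 0.0577) and -0.71 without WT replicate 2, and its part in the FA2H values was not tested.

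Neither neighbour of FA2H had a change of comparable size. MLKL, the effector of necroptosis, lies 11994 bases from FA2H, and against pTRE its log2 fold change was 0.08 in WT, -0.02 in R109K and 0.40 in KK, none of which passed the test (adjusted p = 0.646, 0.946 and 0.0230). WDR59, a regulator of mTORC1 signalling that lies 96530 bases away on the other side, fell in KK by 0.49 (adjusted p = 0.00455), and its values of -0.29 in WT and -0.42 in R109K did not pass (0.0676 and 0.0157). Markers of cells known for FA2H were measured beside it. Of 7 oligodendrocyte or Schwann cell markers, MBP, MOG, MAG and MOBP had at most 10 reads in every sample. The list summed to between 0.912 and 1.47 CPM in pTRE, 1.19 and 3.37 in WT, 0.778 and 1.15 in R109K, and 1.18 and 1.92 in KK. The highest WT value came from 28 reads of SOX10 in WT replicate 2, and without that sample WT was between 1.19 and 1.5 CPM. The part of these genes in the FA2H result was not tested. Of 7 keratinocyte markers KRT1 had at most 10 reads in every sample. The sums overlapped across the lines, at 59.1 to 73.2 CPM in pTRE and 53.1 to 83.1 over the other lines. They were mostly KRT10 and FLG, with pTRE means of 45.0 and 19.8 CPM. KRT14, LOR, KRT5 and IVL were near the floor, with pTRE means of 0.972, 0.758, 0.610 and 0.130 CPM.

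**Figure D1:**
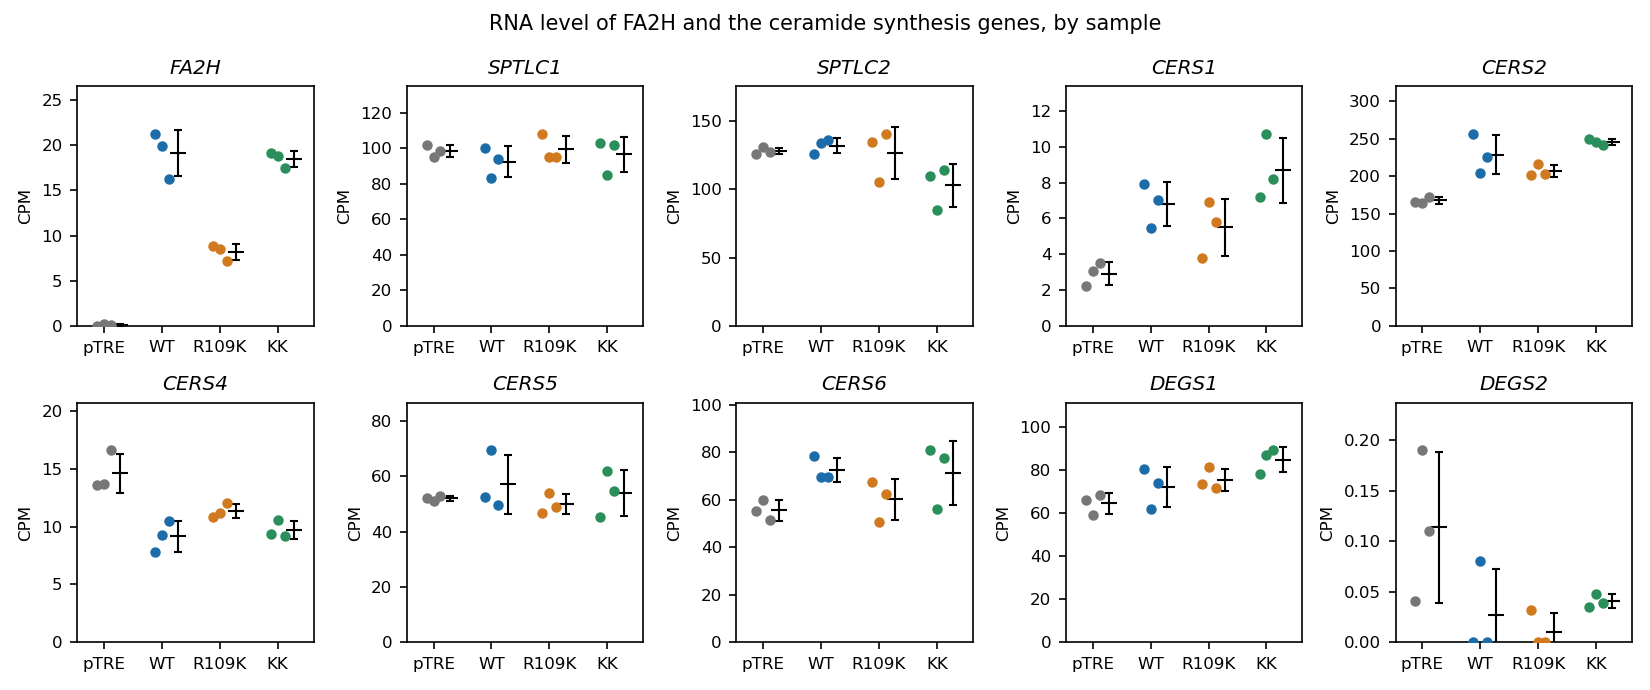
RNA level (CPM, vertical axis from 0, a separate scale per gene) of the 10 genes in the pTRE, WT, R109K and KK lines, with 1 point per replicate and the mean ± SD as a black bar. FA2H is near 0 in pTRE, lowest of the other lines in R109K, and overlaps between WT and KK, while SPTLC1 and CERS5 overlap across all 4 lines.

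Of the 9 other genes, 8 could be tested. In WT, CERS1 and CERS2 rose and CERS4 fell, and the other 5 did not pass the test. These 3 calls compare with 26.2% of all genes called in WT against pTRE, 14.8% as rises and 11.4% as falls. In KK the same 3 genes passed in the same directions, where 24.4% of all genes passed. In R109K 0 of 8 passed in edgeR, where 17.3% of all genes did, 3 of the 8 had an unadjusted p below 0.05 (38.6% of all genes), and DESeq2 called CERS1 alone. Replicates without overlap with pTRE, as given for single genes below, were common, at 51.5% of all genes in WT, 49.4% in KK and 47.2% in R109K. The median log2 fold change of the 8 was 0.15 in WT, 0.21 in KK and 0.07 in R109K, against medians over all genes of 0.0022, -0.0091 and -7e-04. The 3 comparisons share the pTRE samples.

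The subunits of serine palmitoyltransferase, which set the entry of carbon into the pathway, were well expressed in all lines. SPTLC1 was at 102, 94.9 and 98.3 CPM in pTRE, 100.2, 83.3 and 94.1 in WT, 108, 95.2 and 95 in R109K, and 103, 85.1 and 102 in KK. The 4 lines overlapped, and the 95% intervals of the log2 fold change were -0.33 to 0.16 in WT, -0.23 to 0.26 in R109K and -0.27 to 0.22 in KK, which leaves room only for changes below 2-fold (adjusted p = 0.572, 0.937 and 0.884).

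SPTLC2 was at 126, 131 and 127 CPM in pTRE, 126, 134 and 136 in WT, 134, 105 and 141 in R109K, and 109.9, 85.1 and 114 in KK. Every KK sample was below every pTRE and WT sample, but the difference from pTRE did not pass (log2 -0.31, 95% interval -0.60 to -0.03, adjusted p = 0.0771). WT and R109K overlapped pTRE, with log2 values of 0.04 and -0.02 (adjusted p = 0.808 and 0.947). Replicate 2 was the lowest in both R109K and KK.

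CERS1, a synthase best known from neurons, had the greatest fold changes among the 9. Its CPM was 2.23, 3.04 and 3.49 in pTRE, 7.91, 5.46 and 7.05 in WT, 3.79, 6.94 and 5.77 in R109K, and 7.20, 10.7 and 8.17 in KK. No sample with E2F1 was as low as any pTRE sample. CERS1 rose in WT by a log2 fold change of 1.23 (SE 0.25, adjusted p = 0.00113) and in KK by 1.56 (SE 0.25, adjusted p = 1.49e-04), and both calls passed with every setting tried. Both changes were greater than 2-fold, as were 11.8% of all genes in WT and 10.9% in KK. The value in R109K, 0.91 (SE 0.25, 95% interval 0.38 to 1.43), did not pass (adjusted p = 0.0123). In the fit without WT replicate 2, which is no sample of this comparison, it was 0.90 and passed at 0.00721.

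CERS1 counts are less certain than the others. The gene lies on the minus strand of chromosome 19 (GRCh37, 18979354 to 19007536) and shares 2579 of its 3767 exonic bases with GDF1, a growth factor gene made from the same transcript region. GDF1 was listed at 0 reads in all 12 samples, so reads on the shared bases either went to CERS1 or were not counted. UPF1, a factor of nonsense-mediated decay, ends 314 bases away on the other strand, and whether the counting used strand is not stated in the sources used here. UPF1 rose in WT by 0.48 (adjusted p = 0.00420), and its values of 0.40 in KK and 0.27 in R109K did not pass (0.0141 and 0.102).

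CERS2, which makes ceramides with very long fatty acids, was the most abundant synthase in every sample on the per-length scale. It was at 165, 165 and 172 CPM in pTRE, 256, 204 and 226 in WT, 202, 216 and 203 in R109K, and 250, 246 and 242 in KK. All samples with E2F1 were above all pTRE samples. CERS2 rose in WT by 0.45 (SE 0.11, adjusted p = 0.00411) and in KK by 0.55 (SE 0.11, adjusted p = 9.45e-04), and the R109K value of 0.30 (95% interval 0.07 to 0.53) did not pass (adjusted p = 0.0477). The call in WT did not pass in 7 of 12 alternative settings, where the adjusted p reached 0.0307, and the call in KK passed in all 13.

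CERS4, a synthase of long-chain and very-long-chain ceramides, went the other way. It was at 13.6, 13.6 and 16.6 CPM in pTRE, 7.80, 9.23 and 10.5 in WT, 10.9, 11.2 and 12 in R109K, and 9.38, 10.6 and 9.16 in KK. Here every sample with E2F1 was below every pTRE sample. CERS4 fell in WT by 0.67 (SE 0.14, adjusted p = 0.00172) and in KK by 0.59 (SE 0.14, adjusted p = 0.00400), and its value of -0.37 in R109K did not pass (95% interval -0.66 to -0.07, adjusted p = 0.0643).

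CERS5 and CERS6 are the synthases that favour palmitic acid, and neither passed in any line. CERS5 was at 52.1, 51.0 and 52.7 CPM in pTRE, 52.5, 69.2 and 49.4 in WT, 46.7, 53.8 and 49.0 in R109K, and 45.3, 61.7 and 54.5 in KK. The lines overlapped, and the sign in WT turned with WT replicate 2, from 0.13 with it to -0.03 without it (adjusted p = 0.475 and 0.882). CERS6 was at 55.4, 60.0 and 51.3 CPM in pTRE, 78.4, 69.7 and 69.7 in WT, 67.4, 50.8 and 62.2 in R109K, and 80.7, 56.0 and 77.4 in KK. All WT samples were above all pTRE samples, yet the log2 value of 0.39 (95% interval 0.08 to 0.69) had an adjusted p of 0.0444. Without KK replicate 2, the lowest in its line, the CERS6 value in KK went from 0.36 (adjusted p = 0.0619) to 0.51 (adjusted p = 0.00708).

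The desaturases differed widely in level. DEGS1 was at 66.1, 59.3 and 68.6 CPM in pTRE, 80.6, 62.2 and 74.0 in WT, 73.6, 81.4 and 71.9 in R109K, and 78.3, 87.0 and 89.2 in KK. Every R109K and KK sample was above every pTRE sample. The log2 fold changes did not pass, at 0.16 in WT, 0.23 in R109K and 0.39 in KK (adjusted p = 0.285, 0.172 and 0.0165), and without WT replicate 2 the KK value passed at 0.00665. DEGS2 had 1, 5 and 3 reads in pTRE, 0, 1 and 0 in WT, 1, 0 and 0 in R109K, and 1 in each KK sample, so that no difference between lines could be read at this depth.

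**Figure D2:**
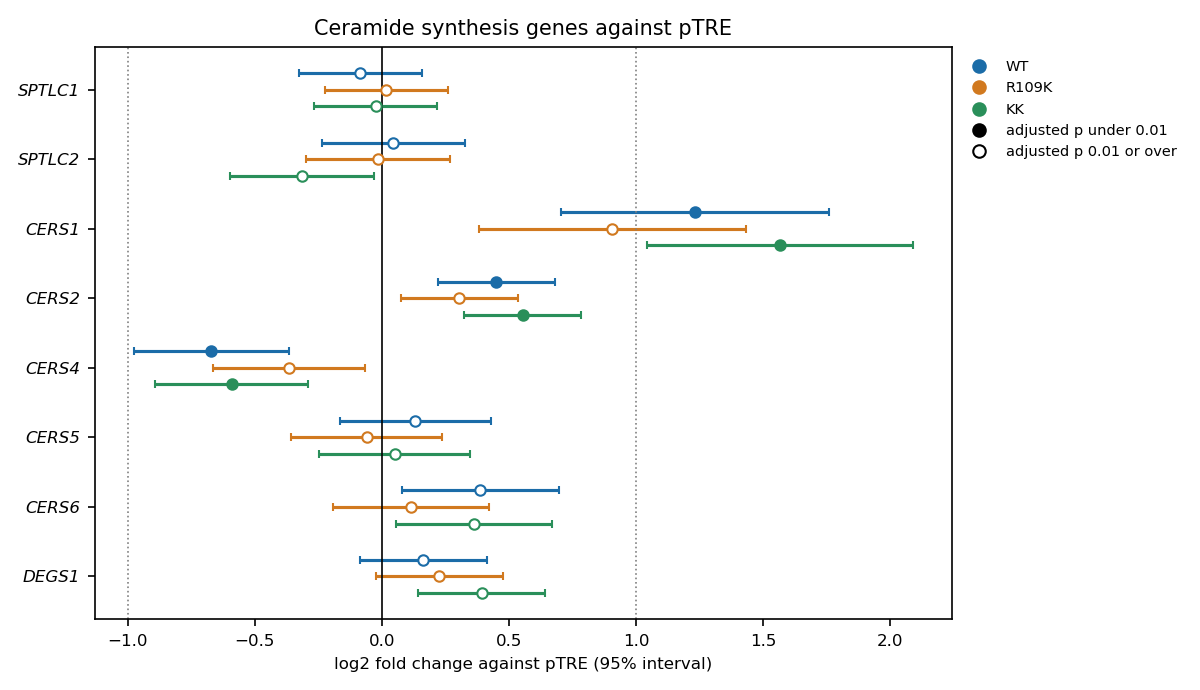
Log2 fold change against pTRE (horizontal axis) of the 8 tested genes other than FA2H in the WT, R109K and KK lines. Points are estimates of the edgeR model with 95% intervals, filled where the adjusted p was under 0.01 and open otherwise, and dotted lines mark 2-fold. CERS1 and CERS2 lie to the right and CERS4 to the left with filled points in WT and KK, and the R109K points are open throughout.

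Levels were also set on a per-length scale, as CPM divided by kilobases of exon in GENCODE. The length was the union of the exons of all annotated transcripts, such as 10589 bases for SPTLC1 and 2446 for DEGS1. It can exceed the length of the transcripts present, which lowers a gene on this scale. In plain CPM, SPTLC1 was above DEGS1 in pTRE (means 98.3 and 64.7). The order below thus depends on the length used, and another length was tried for CERS1 only. In pTRE the order was CERS2 (36.1 CPM per kb), DEGS1 (26.4), SPTLC2 (10.4), SPTLC1 (9.28), CERS6 (8.11), CERS5 (7.68), CERS4 (3.60), CERS1 (0.775), DEGS2 (0.0288) and FA2H (0.0268). CERS5 overlapped with CERS6, and DEGS2 with FA2H, over the pTRE samples, and other neighbours in this order did not overlap. FA2H stood at 5.84 ± 0.779 CPM per kb in WT, 2.5 ± 0.277 in R109K and 5.64 ± 0.270 in KK (SD, n = 3). In WT and KK it was thus above CERS4 (2.26 and 2.39) and CERS1 (1.81 and 2.31) and below CERS5 (8.43 and 7.95), and in R109K it was close to CERS4 (2.79 ± 0.146).

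The per-length levels of the 6 ceramide synthases, CERS3 included, summed to 56.3 ± 1.10 CPM per kb in pTRE, 72.4 ± 5.39 in WT, 65.0 ± 1.29 in R109K and 76.0 ± 0.477 in KK (SD, n = 3). CERS2 made up 64.1% ± 0.639 of this sum in pTRE, 67.9% ± 3.06 in WT, 68.5% ± 1.20 in R109K and 69.6% ± 0.885 in KK. The share of CERS4 was 6.38% ± 0.620 in pTRE, 3.15% ± 0.625 in WT, 4.30% ± 0.243 in R109K and 3.14% ± 0.257 in KK, and no sample with E2F1 reached the lowest pTRE sample. CERS1 went from 1.37% ± 0.277 in pTRE to 2.48% ± 0.309 in WT, 2.24% ± 0.610 in R109K and 3.04% ± 0.649 in KK. When the bases shared with GDF1 were left out of its length, the shares of CERS1 were 4.23%, 7.47%, 6.76% and 9.02%, in the same order of lines. CERS3, a synthase of skin, had 2 to 17 reads per sample.

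**Figure D3:**
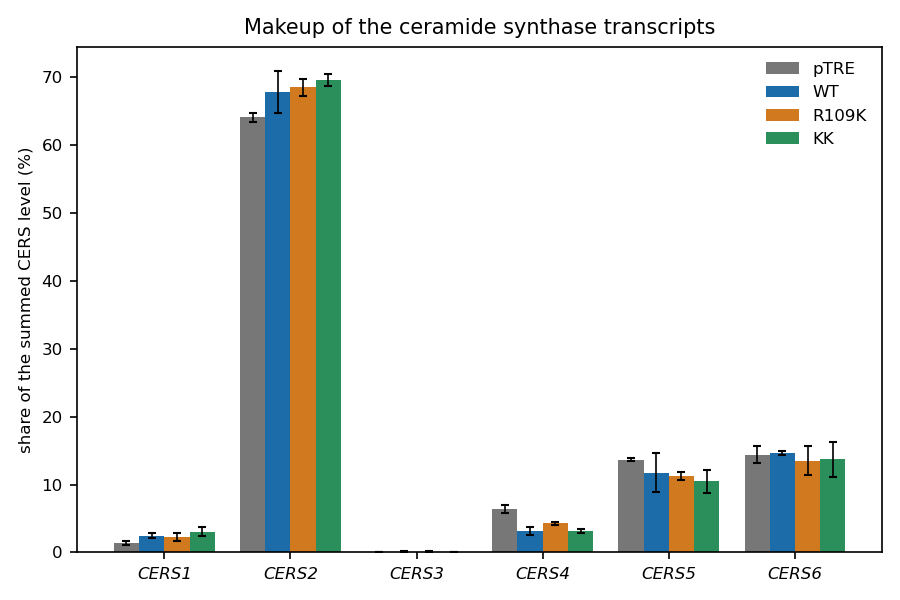
Share (%) of each ceramide synthase in the summed CPM per kb of CERS1 to CERS6, for the pTRE, WT, R109K and KK lines. Bars start at 0 and show the mean of 3 replicates, and whiskers show the SD. CERS2 holds 64.1% to 69.6% in every line, and the CERS4 share is lower in the lines with E2F1 than in pTRE.

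Between the lines with E2F1, edgeR called 0 of the 8 tested genes in each of the 3 comparisons, and DESeq2 called 0 as well. The numbers with an unadjusted p below 0.05 were 1 in R109K against WT, 1 in KK against WT and 3 in R109K against KK, which is 22.3%, 8.51% and 12.4% over all genes. The adjusted test was passed by 0.710%, 0.0120% and 0.132% of all genes. For CERS1, R109K was below KK in every replicate (log2 -0.66, 95% interval -1.16 to -0.16, adjusted p = 0.218). CERS2 had a difference of -0.25 (95% interval -0.48 to -0.02, adjusted p = 0.352) and SPTLC2 one of 0.30 (95% interval 0.01 to 0.58, adjusted p = 0.366) in the same comparison. For KK against WT, SPTLC2 had the lowest unadjusted p, at a log2 difference of -0.36 (95% interval -0.64 to -0.07, adjusted p = 0.574). For R109K against WT, CERS4 was at 0.31 (95% interval 0 to 0.61, adjusted p = 0.224). The R109K values of CERS1, CERS2 and CERS4 were thus closer to pTRE than those of WT and KK, but none of these differences between lines passed the test.

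A wider set of 63 genes of sphingolipid metabolism was counted by role, and 58 of them could be tested. In WT 12 rose and 13 fell, which is 43.1% of those tested against 26.2% of all genes. In KK 9 rose and 8 fell (29.3% against 24.4%), and in R109K 7 rose and 4 fell (19% against 17.3%). The median log2 fold change of these genes was -0.05 in WT, 0.02 in KK and -0.01 in R109K.

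Among 8 further genes of de novo synthesis, KDSR, the reductase of the second step, rose in WT by 0.67 (adjusted p = 3.77e-04) and in KK by 0.65 (5.20e-04), with 0.45 in R109K (0.0101). SPTLC3, an alternative subunit of serine palmitoyltransferase, fell in WT by 0.94 (adjusted p = 3.51e-04) and in KK by 0.66 (0.00455), with -0.52 in R109K (0.0231). SPTSSB, a small activating subunit with low counts, passed in R109K, at 1.77 (adjusted p = 0.00698), while WT and KK were at 1.00 and 1.17 (0.102 and 0.0562). Its differences of R109K from WT and KK did not pass (0.272 and 0.620), and its call in R109K was lost in 5 alternative settings. The ORMDL genes, inhibitors of the transferase, did not pass in any line.

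Of 10 genes that convert or transport ceramide, 9 were tested. UGT8, which makes the galactosylceramide of myelin, a class of lipid that carries FA2H products, was at 27.7 ± 0.947 CPM in pTRE, 62.5 ± 7.99 in WT, 57.7 ± 5.86 in R109K and 66.7 ± 13.4 in KK (SD, n = 3). UGT8 rose in all 3 lines, by 1.18 in WT (adjusted p = 1.82e-05), 1.06 in R109K (7.83e-05) and 1.27 in KK (9.09e-06). B4GALT6, a lactosylceramide synthase, was at 10.3, 10.1 and 11.6 CPM in pTRE, 27.7, 26.4 and 24.1 in WT, 14.4, 13.6 and 14.8 in R109K, and 24.3, 16.2 and 26.0 in KK. It rose in WT by 1.29 (adjusted p = 1.48e-05) and in KK by 1.05 (9.45e-05), while R109K was at 0.42 (0.0627). All R109K samples were below all WT and KK samples, and R109K was lower than WT by a log2 difference of -0.87 (SE 0.16, adjusted p = 0.00904), in samples whose E2F1 RNA differed by -0.65. That call was lost in 7 of its alternative settings, among them the one without WT replicate 2 (adjusted p = 0.0140). It was the 1 call among the 58 tested genes of the wider set (1.72%), against 0.710% of all genes. B4GALT6 is named for its rise in WT and KK, so the WT values took part in its choice. SGMS2, a sphingomyelin synthase, rose in WT by 0.77 (adjusted p = 0.00280) and did not pass in KK or R109K (0.0235 and 0.225).

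The sphingosine 1-phosphate branch, which uses what ceramide breakdown releases, held 4 of the genes with changes greater than 2-fold. SPHK1, a sphingosine kinase, rose from 34.3 CPM in pTRE to 97.3 in WT, 65.7 in R109K and 96.8 in KK, with log2 fold changes of 1.51 (adjusted p = 9.33e-06), 0.94 (8.65e-04) and 1.5 (1.02e-05). SGPP1, a phosphatase of the product, rose from 41.5 CPM to 133.9, 79.1 and 105.0, with log2 values of 1.69 (1.60e-06), 0.93 (5.22e-04) and 1.34 (1.41e-05). SGPL1, the lyase that ends the pathway, fell in all 3 lines, by 0.57 in WT, 0.65 in R109K and 0.62 in KK (adjusted p = 0.00370, 0.00216 and 0.00211). SPNS2, a transporter of sphingosine 1-phosphate, rose in WT by 1.09 (adjusted p = 9.63e-04), with 0.70 in KK and 0.23 in R109K (0.0191 and 0.488). The receptor S1PR4 fell in WT by 1.20 (adjusted p = 0.00721), a call lost in 5 alternative settings, among them the one without WT replicate 2 (0.0101), with -0.67 in KK and -0.56 in R109K (0.0948 and 0.180). S1PR5, another receptor, fell in WT by 0.76 (adjusted p = 0.00418).

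Of 14 tested genes of ceramide release and breakdown, 3 rose and 4 fell in WT, where 14.8% of all genes rose and 11.4% fell. Among those that fell were 3 that act in the lysosome, namely PSAP, the precursor of the saposins (1065 ± 74.3 CPM in pTRE and 611 ± 114 in WT, log2 -0.80, adjusted p = 2.08e-04), the acid ceramidase ASAH1 (-0.83, 4.70e-04) and the galactocerebrosidase GALC (-0.57, 0.00616). PSAP also fell in KK and R109K, GALC fell in KK, and ASAH1 passed in WT alone. ASAH1 was lowest in WT replicate 2, at 32.3 CPM against 49.8 and 54.6 in the other WT replicates. The acid sphingomyelinase SMPD1, also lysosomal, rose in WT by 0.55 (adjusted p = 0.00197) and in KK by 0.90 (2.88e-05). SMPD4, a neutral sphingomyelinase, rose by 0.65 in WT, 0.59 in R109K and 0.64 in KK (adjusted p = 6.78e-04, 0.00222 and 7.85e-04).

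In fatty acid elongation, which supplies the chains that CERS2 and FA2H use, 2 of 10 tested genes rose in every line, ELOVL6 fell in WT and KK, and PTPLA fell in WT and R109K. That made 4 calls in WT, 3 in KK and 3 in R109K, where 26.2%, 24.4% and 17.3% of all genes passed. The elongase ELOVL7 rose from 30.8 CPM in pTRE to 79.0 in WT, 62.4 in R109K and 73.7 in KK, by 1.36, 1.02 and 1.26 (adjusted p = 8.98e-06, 1.95e-04 and 1.87e-05). The dehydratase HACD3, listed as PTPLAD1, rose from 271 CPM to 451, 412 and 545, by 0.74, 0.60 and 1.01 (2.31e-04, 0.00166 and 1.41e-05), and its call in R109K was lost in 2 alternative settings, without pTRE replicate 2 (0.0117) and without R109K replicate 1 (0.0137). A last list held 6 genes that supply electrons to hydroxylation or act in the breakdown of hydroxylated or branched fatty acids. In WT, where 11.4% of all genes fell, 3 of them did: CYB5A, a cytochrome b5 (-0.90, adjusted p = 0.00484), PHYH, a hydroxylase of branched chains (-0.60, 0.00511), and the aldehyde dehydrogenase ALDH3A2 (-0.60, 2.33e-04). ALDH3A2 also fell in KK (-0.51, 8.92e-04), and none of the 6 passed in R109K in edgeR, where 2 of them, and 38.6% of all genes, had an unadjusted p below 0.05.

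**Figure D4:**
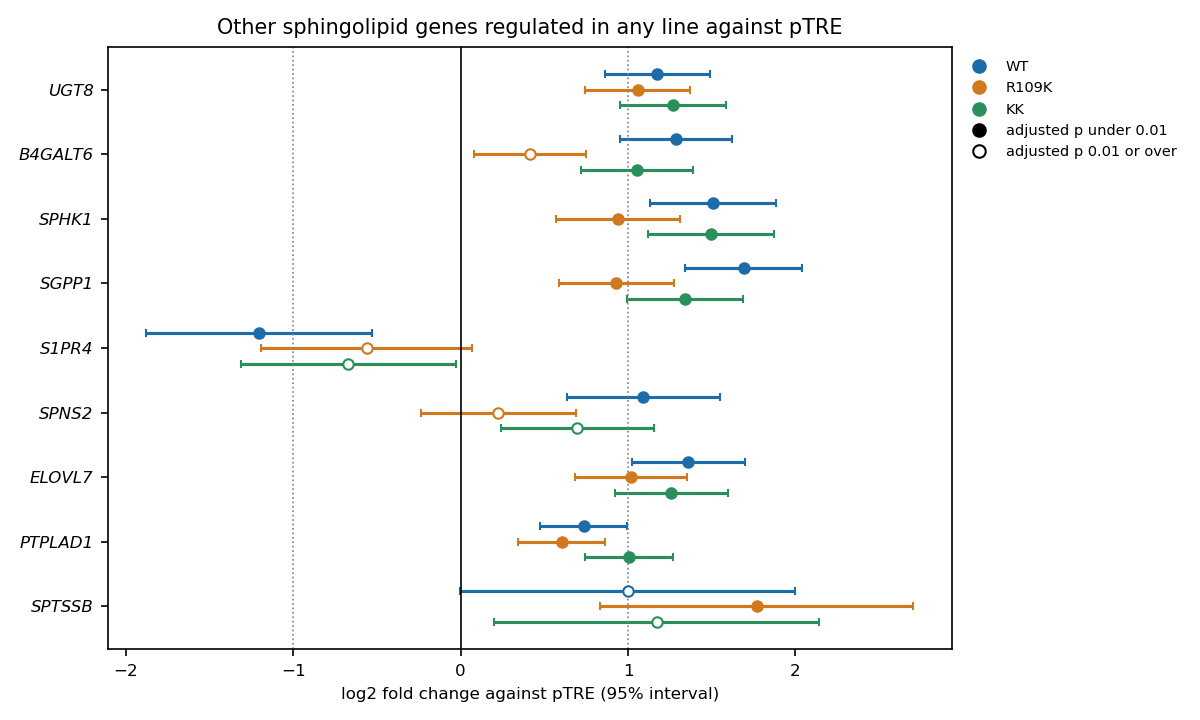
Log2 fold change against pTRE (horizontal axis, with 95% intervals) of the 9 further sphingolipid genes that passed the test with a change greater than 2-fold in any line, in WT, R109K and KK. Filled points had an adjusted p under 0.01, open points did not, and dotted lines mark 2-fold. UGT8, SPHK1, SGPP1, ELOVL7 and PTPLAD1 have filled points in all 3 lines, and B4GALT6 has an open point in R109K.

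The genes whose pattern over the 12 samples was closest to that of FA2H were ranked by the root mean square difference of their log2 CPM, each centred on its own mean. FA2H itself spanned 8.08 log2 units over the samples, and the median difference over all genes was 2.94. The closest were TMEM155 (0.63), HS6ST3 (0.79), SPHKAP (0.81), GPR12 (0.82) and GRIK3 (0.86). TMEM155 went from 0.0507 CPM in pTRE to 7.16 ± 2.96 in WT, 2.56 ± 0.517 in R109K and 5.23 ± 1.12 in KK (SD, n = 3). HS6ST3, a heparan sulfate sulfotransferase, went from 0.154 CPM to 8.10 ± 0.946, 4.59 ± 0.377 and 9.24 ± 0.624 in the same lines. These genes were picked for their likeness, so that the pattern they share with FA2H is no result. For GRIK3 the R109K level (5.16 ± 1.17 CPM) lay within the SD of that in KK (5.70 ± 1.36).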

How the data were processed

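RNA-seq of 12 samples was used, 3 biological replicates for each of 4 lines. The authors deposited raw counts of reads per gene symbol, 1 set per sample. According to the methods and labels, mRNA was selected by poly(A), libraries were directional, and reads were trimmed with Trim Galore 0.4.3 and aligned to hg19 with STAR 2.5.1. The submitters' processing notes also name DESeq2 1.16.1. The gene annotation and the use of strand in counting are not given in the sources used here. The 5 summary lines, 68.8% of the reads in WT replicate 2 and 34.3% to 41.0% in the others, were left out.

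Counts were fitted with edgeR 4.0.16 in R 4.3.3 (filterByExpr, 16625 genes kept, TMM, 1 quasi-likelihood model with a mean per line, common dispersion 0.0239), with Benjamini-Hochberg adjustment over all genes kept. Rose, fell and passed mean an adjusted p below 0.01, and regulated adds a change greater than 2-fold, as in the study. A prior count of 2 entered the log2 CPM. The scripts were tested on simulated data. No 2 replicates agreed within sampling noise.

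The members and lists were chosen with earlier results of these data known. Named in the text are all members, E2F1, the genes of the wider lists that were regulated in any line against pTRE, and the 5 genes most like FA2H; other genes were named after their values were seen, and 1 gene of these lists is counted but not reported here by name. Alternatives were DESeq2 1.42.0, RLE normalization, no filter, at least 10 reads in every sample, the 6 samples of a comparison alone, a replicate block, each replicate left out, and an adjusted p below 0.05. Leaving out WT replicate 2 elsewhere, and the CERS1 length without bases shared with GDF1, were added after seeing the data. Exon lengths and positions come from GENCODE 44 lifted to GRCh37, promoters from RefSeq on GRCh38.p14. Figures used Python 3.11.15 and matplotlib 3.10.9.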

Additional observations from a re-analysis of the deposited data

Results flagged for a closer look

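FA2H differed between the lines with mutated E2F1, at a log2 value of -1.17 for R109K against KK (edgeR adjusted p = 0.00981). The levels of all lines were known when FA2H was chosen, so this p-value is not free of that choice. All 3 R109K samples were below all 3 KK samples, and 21.0% of all genes had no overlap in that comparison. B4GALT6, named for its rise in WT and KK, differed between R109K and WT, at -0.87 (adjusted p = 0.00904). Its replicates did not overlap either, which held for 27.1% of all genes in that comparison. The WT values took part in the choice of B4GALT6. Both adjusted p-values lay close to the threshold of 0.01: the FA2H call was lost in 8 of 12 alternatives (adjusted p up to 0.0925) and the B4GALT6 call in 7 (up to 0.0511). E2F1 RNA differed by -0.18 for R109K against KK and by -0.65 for R109K against WT.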

How the results depend on the processing

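Of the 8 tested genes other than FA2H, CERS1 in WT and KK and CERS2 in KK passed under every alternative, and other rescalings moved the median of all genes by at most 0.0104 on the log2 scale. Among the 8 tested genes other than FA2H, the number passing in WT was 1 with only the 6 samples compared and 1 to 3 with 1 replicate left out. In R109K it was 1 with DESeq2, without a filter and with only 6 samples, 2 at an adjusted p below 0.05, and 0 to 1 with 1 replicate left out, as was the number changed more than 2-fold. Of the wider set, WT had 16 to 26 and R109K 6 to 16 with 1 replicate left out (the 16 in WT came without WT replicate 1, the 6 in R109K without pTRE replicate 1). R109K had 17 with DESeq2 and 22 at an adjusted p below 0.05, where KK had 28.

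With 1 replicate left out, the log2 fold change of FA2H was 7.13 to 8.77 in WT, 7.09 to 8.72 in KK and 5.92 to 7.55 in R109K, and a minimum of 10 reads in every sample removed FA2H. R109K against KK stayed at -1.24 to -1.08, and at -1.17 with only 6 samples (adjusted p = 0.0151). With a replicate block, FA2H in R109K against KK was at -1.18 (adjusted p = 0.0141), and B4GALT6 in R109K against WT was no longer called (0.0109). Same-numbered samples of different lines were little alike on average, with a mean correlation of 0.0436 over 18 pairs (-0.295 to 0.470). The mean was -0.0235 over 36 pairs with other numbers. Replicate 2 stood furthest from the other replicates in R109K (chi-square per degree of freedom 32.8 and 23.2, against 10.8 between replicates 1 and 3). The same held in KK (53.9 and 38.6, against 9.36) and in WT (59.8 and 60.5, against 14.7). It did not hold in pTRE (13.3 and 17.1, against 24.8). Whether samples of some numbers shared a batch was not tested.

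Values near 0 that did not pass changed sign when 1 replicate was left out: CERS5 in WT (-0.0293 to 0.21) and KK (-0.0601 to 0.16), SPTLC1 in KK (-0.0738 to 0.0554) and R109K (-0.0524 to 0.0483, and -0.0092 without pTRE replicate 2), SPTLC2 in R109K (-0.10 to 0.10) and SPNS2 in R109K (-0.0082 to 0.41). CERS4 was lost in 3 alternatives in WT (adjusted p up to 0.0114) and 3 in KK (up to 0.0224). As a share of reads, CERS1 held 0.995% in pTRE, 1.81% in WT and 2.23% in KK, and without the bases shared with GDF1 4.23%, 7.47% and 9.02%, with 6.76% in R109K. The cause of these changes was not tested. Depth limited DEGS2, CERS3 and FA2H in pTRE, which had few reads.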

Other observations

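ELOVL3, an elongase of very long saturated chains, was in the wider list but did not pass the filter on low counts, and it is described here after its values were seen. It had 0 reads in all pTRE samples, 14, 4 and 8 in WT, 5, 2 and 2 in R109K, and 14, 7 and 8 in KK. Set against a floor of 3 reads over the pTRE group, its pooled level was 9.88 times the floor in WT, 2.82 times in R109K and 10.01 times in KK. These ratios leave out the counting error of the 26, 9 and 29 reads in those lines and are no lower bounds. No test is given, since the gene was picked for these values.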
